A study of Rattus norvegicus and Heterocephalus glaber with 6 samples.

Results

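The transcription factors described here are 8 regulators of hepatocyte identity: the nuclear receptors Hnf4a, Hnf4g and Nr5a2, the forkhead factors Foxa1, Foxa2 and Foxa3, the cut-homeobox factor Onecut1 and the homeobox factor Prox1. They were taken as the rows whose symbol equals one of these names, and all 8 were found among the 22517 symbols of the rat tables. None was among the 567 symbols of the naked mole rat tables used here. The livers came from naked mole rats, a subterranean rodent, and from rats, both held at 8% oxygen for 8 hours, with 3 libraries of polyadenylated RNA per species. No normoxia library was used here, so the values describe hypoxic liver and no effect of oxygen was measured. The labels give no strain, age or genotype, and nothing in them says that each library came from a separate animal, so the spread between libraries may in part be technical. The 3 rat libraries are called rat 1, rat 2 and rat 3 after their replicate numbers.

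Hepatocytes keep their character through a small set of transcription factors that bind each other's promoters as well as those of plasma protein, lipid and glucose genes. HNF4A binds DNA as a homodimer and is required for hepatocyte differentiation. FOXA proteins open compacted chromatin and are known as pioneer factors. ONECUT1, also called HNF6, PROX1 and NR5A2, also called LRH-1, act in the same circuit, and PROX1 can act as a corepressor of HNF4A and NR5A2.

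The values are FPKM, fragment numbers divided by transcript length and library total, so levels of different genes can be set side by side per length. FPKM carries no read count, so the depth of the libraries is unknown. The rat tables summed to between 527133 and 557187 FPKM over 22549 rows, of which 9866 to 10036 per library reached 1 FPKM. The highest sum, in rat 3, includes Alb, which had no usable value in rat 1 and rat 2. Without Alb the sums were 531212, 527133 and 531399 FPKM in rat 1, rat 2 and rat 3. Of 14 hepatocyte markers, 13 were measured and all 13 averaged at least 100 FPKM, against 2.94% of all rat rows, so the tissue label and the values go together.

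All 8 factors averaged at least 1 FPKM in rat liver, against 44.3% of all rat rows, and 4 of the 8 averaged at least 10 FPKM, against 17.3%. Hnf4a stood far above the others. It made up 65.4%, 58.8% and 60.7% of the FPKM summed over the 8 factors in rat 1, rat 2 and rat 3, sums that came to 208, 205 and 190 FPKM.

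**Figure D1:**
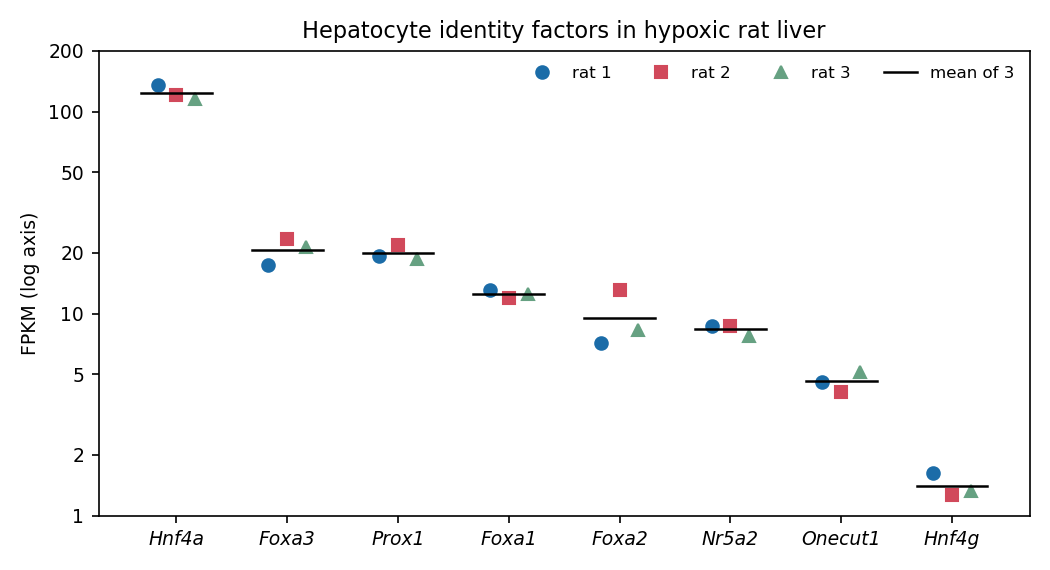
FPKM of the 8 factors (log axis) in the 3 rat libraries, with 1 symbol per library and a bar at the mean of 3. Hnf4a lies near 124 FPKM and Hnf4g near 1.40 FPKM, and the points of Foxa2 lie farthest apart, between 7.14 and 13.1 FPKM.

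The 2 HNF4 receptors lay at opposite ends of the order. Hnf4a was at 136 FPKM in rat 1, 120 FPKM in rat 2 and 116 FPKM in rat 3, a mean of 124 ± 10.8 (SD, n = 3) that exceeded 94.5% of the 9994 rat rows that averaged 1 FPKM or more and had a value in every library. Hnf4g, its paralogue, best known from intestine, kidney and pancreas, was at 1.62, 1.26 and 1.33 FPKM, a mean of 1.40 ± 0.191 (SD, n = 3) that exceeded 6.61% of those rows. The libraries therefore held 84.1, 95.4 and 87.1 times as much Hnf4a as Hnf4g per length. The Hnf4a row ran from 154459862 to 154482825 on chromosome 3 and the Hnf4g row from 100367289 to 100518496 on chromosome 2, in the coordinates of the deposited tables, whose build is not given in the sources used here. Neither row, nor that of any other of the 8 factors, overlapped another row. In all 3 libraries the Hnf4a value lay above the upper confidence bound that the deposited tables give for it (127, 114 and 109 FPKM), as did 10.3% to 10.9% of the rat values above 0, so these bounds are not error bars for the level of Hnf4a.

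Hnf4a is transcribed from a pair of promoters. The downstream one, P1, is the promoter of adult liver, and the upstream one, P2, is used in pancreas and in fetal liver, as known from human and mouse. RefSeq places the 2 starts 35616 bases apart in the rat build GRCr8, while the deposited Hnf4a row spans 22963 bp and carries 1 start identifier, so the row is too short to hold both starts at that spacing. The 124 FPKM were therefore measured on a gene model that cannot report on both promoters. The 300-base windows around the starts, from 250 bases before to 50 after, are printed with core letters of other factors of the set marked. Capitals mark the letters ATTGAT, the core bound by ONECUT1, and TGTTTG, a form of the forkhead core, on either strand. The downstream window is chr3:172641586-172641885 and the upstream one chr3:172605970-172606269, both on the plus strand of GRCr8.
Hnf4a downstream start: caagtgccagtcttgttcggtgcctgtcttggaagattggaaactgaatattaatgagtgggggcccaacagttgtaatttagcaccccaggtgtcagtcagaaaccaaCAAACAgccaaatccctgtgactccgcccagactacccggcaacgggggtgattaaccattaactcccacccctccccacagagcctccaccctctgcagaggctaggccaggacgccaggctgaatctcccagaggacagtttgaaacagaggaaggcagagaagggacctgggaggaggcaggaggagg
Hnf4a upstream start: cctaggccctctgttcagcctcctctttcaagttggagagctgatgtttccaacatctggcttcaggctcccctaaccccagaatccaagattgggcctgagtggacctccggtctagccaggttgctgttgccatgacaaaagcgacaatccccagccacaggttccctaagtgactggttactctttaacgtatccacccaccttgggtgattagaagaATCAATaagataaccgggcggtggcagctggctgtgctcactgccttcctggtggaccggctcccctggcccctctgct
The downstream window holds 1 forkhead core, read on the minus strand, 141 to 136 bases before the start. The upstream window holds 1 ONECUT core, 29 to 24 bases before the start. Of 33469 rat promoter windows of this length, 8.06% hold ATTGAT and 17.8% TGTTTG, so single matches are common. A match is a description of letters and not a measured site. Transcripts of the FOXA genes and Onecut1, whose proteins bind such cores, were at lower levels than Hnf4a. Whether they bind at these matches was not tested.

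The FOXA genes ranked Foxa3, Foxa1, Foxa2 by mean. Foxa3, the FOXA gene known for its role in glucose genes of adult liver in mouse, was at 17.5, 23.4 and 21.3 FPKM in rat 1, rat 2 and rat 3, a mean of 20.7 ± 3.03 (SD, n = 3; chromosome 1, 78368025 to 78376953). Foxa1 was at 13.2, 11.9 and 12.4 FPKM, a mean of 12.5 ± 0.616 (SD, n = 3; chromosome 6, 77976383 to 78009176). Its highest library was 1.10 times its lowest, the smallest such ratio among the 8 factors. Foxa2, which in mouse liver acts in fasting and bile acid metabolism, was at 7.14, 13.1 and 8.34 FPKM, a mean of 9.53 ± 3.17 (SD, n = 3; chromosome 3, 136739008 to 136743204). Foxa2 in rat 2 was 1.84 times its level in rat 1, and Foxa2 was above Foxa1 in rat 2 alone: the ratio of Foxa2 to Foxa1 was 0.543 in rat 1, 1.10 in rat 2 and 0.670 in rat 3. Foxa2 made up 18.9%, 27.1% and 19.8% of the summed FOXA level, and Foxa3 46.3%, 48.4% and 50.6%.

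The Foxa2 promoter window is shown because Foxa2 was the factor that varied most between the libraries. It covers chr3:155927459-155927758 on the minus strand of GRCr8, from RefSeq, with the same letters in capitals.
Foxa2: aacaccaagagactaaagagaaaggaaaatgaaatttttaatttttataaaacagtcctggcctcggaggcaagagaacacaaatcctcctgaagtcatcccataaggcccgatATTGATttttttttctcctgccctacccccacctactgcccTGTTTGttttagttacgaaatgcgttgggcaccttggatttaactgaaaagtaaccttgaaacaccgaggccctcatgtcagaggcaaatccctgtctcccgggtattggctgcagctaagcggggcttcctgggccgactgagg
It holds 1 ONECUT core, 136 to 131 bases before the start, and 1 forkhead core of the TGTTTG form, 95 to 90 bases before it. The longer forkhead core TGTTTAC, the HNF4 letters AAAGTCCA and the NR5A core CAAGGTCA were searched on both strands as well, and none was in these windows or in those of Foxa3 and Nr5a2. They occur in 3.78%, 1.37% and 1.52% of all windows. Windows were available for 4 of the 8 factors.

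The 3 remaining factors had similar values in every library. Prox1, a homeobox factor of hepatoblast migration and of lymphatic vessels, was at 19.3, 21.8 and 18.6 FPKM in rat 1, rat 2 and rat 3, a mean of 19.9 ± 1.69 (SD, n = 3; chromosome 13, 106421540 to 106471350). Nr5a2, a receptor that controls bile acid and cholesterol genes, was at 8.72, 8.66 and 7.76 FPKM, a mean of 8.38 ± 0.538 (SD, n = 3; chromosome 13, 49931591 to 50048756). Onecut1 was at 4.59, 4.09 and 5.16 FPKM, a mean of 4.61 ± 0.534 (SD, n = 3; chromosome 8, 79644304 to 79672772). In bulk tissue, fewer cells of a type and less RNA per cell cannot be told apart. Lymphatic endothelial cells also express Prox1, and of 5 measured lymphatic endothelial markers Pdpn (0.0595 to 0.248 FPKM) and Mmrn1 (0.0355 to 0.140 FPKM) were below 1 FPKM in each library, Sox18 was at 1.07 to 1.19 FPKM and Flt4 at 3.61 to 4.08 FPKM. The fifth, Lyve1, is also made by sinusoidal endothelium and was at 23.4 to 28.7 FPKM. The sum over the 5 markers was 33.9, 31.1 and 28.6 FPKM in rat 1, rat 2 and rat 3, most of it Lyve1, and the sum over the 4 others was 5.25, 5.42 and 5.19 FPKM. The part of lymphatic cells in the Prox1 values was not tested.

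From the highest mean to the lowest the order was Hnf4a, Foxa3, Prox1, Foxa1, Foxa2, Nr5a2, Onecut1, Hnf4g. The ranges of 4 neighbouring pairs did not overlap, and the first gene was higher in 3 of 3 libraries: Hnf4a over Foxa3 by a log2(FPKM + 1) difference of 2.53 ± 0.316, Prox1 over Foxa1 by 0.63 ± 0.166, Nr5a2 over Onecut1 by 0.74 ± 0.213 and Onecut1 over Hnf4g by 1.22 ± 0.162 (SD, n = 3). The other 3 pairs overlapped, each with the first gene higher in 2 of 3 libraries. Foxa3 and Prox1 differed by 0.05 ± 0.166, Foxa1 and Foxa2 by 0.40 ± 0.476, and Foxa2 and Nr5a2 by 0.13 ± 0.403 (SD, n = 3). These 3 differences were smaller than the spread between libraries. Without rat 3 the mean difference of Foxa3 over Prox1 was -0.02, and without rat 2 that of Foxa2 over Nr5a2 was -0.08.

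Foxa2 stood apart from the other factors in its spread. The SD of its log2(FPKM + 1) between libraries was 0.414, above that of 94.4% of the 9994 rows and of 95.4% of the 3552 rows with a mean of 5 to 20 FPKM. Over the 9994 rows the median SD was 0.137. Foxa3 followed at 0.206, above 73.6% of the rows, and the other 6 factors lay between 0.0656 for Foxa1 and 0.137 for Onecut1, at or below the 50.2nd percentile of the rows. The order below Foxa2 depended on scaling. With values divided by each library's median ratio to the geometric mean, Foxa2 was at 0.364, Hnf4a at 0.176 and Foxa3 at 0.148. Prox1 was then the lowest at 0.0905, and Foxa1 was at 0.123.

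**Figure D2:**
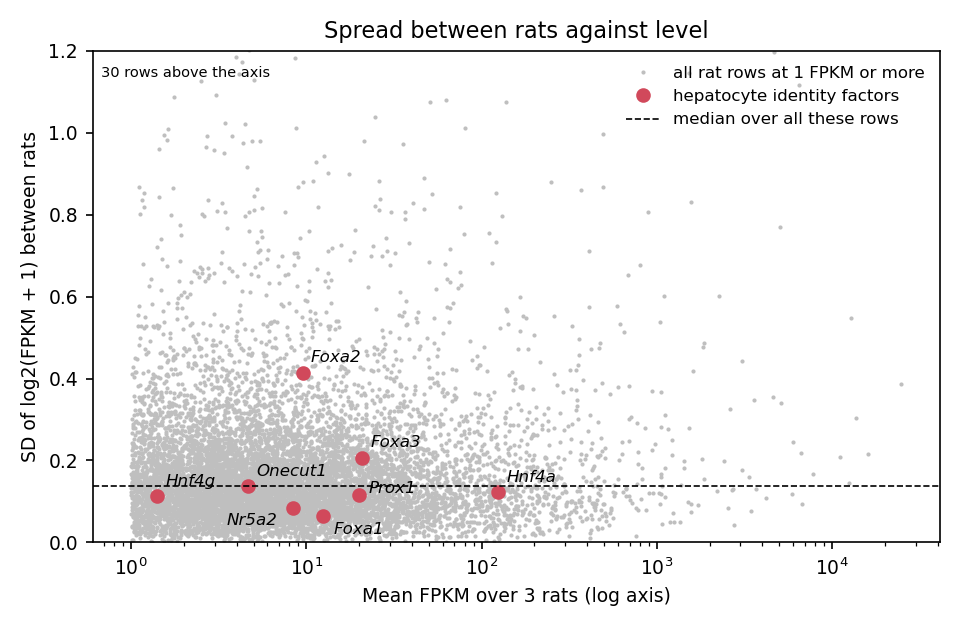
SD of log2(FPKM + 1) between the 3 rat libraries against mean FPKM (log axis) for the 9994 rat rows at 1 FPKM or more (grey) and the 8 factors (red), with the median SD of 0.137 as a dashed line and 30 rows above the axis limit of 1.2. Foxa2 at 0.414 lies above most rows of its level, and Foxa1 at 0.0656 near the bottom.

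Each library was asked which genes it held at least 1.5 times above, or 1.5 times below, both other libraries, a limit chosen after the values were seen. Of the 8 factors, Foxa2 alone met it, as higher in rat 2, which 1.97% of the 9994 rows did. None of the 8 was that far below in rat 2 (1.95% of rows), above in rat 1 or rat 3 (1.17% and 1.87%) or below in rat 1 or rat 3 (2.34% and 1.75%). With 2 as the limit Foxa2 no longer met it. Cholangiocytes, which line bile ducts, also express FOXA genes and Onecut1. Of 7 measured cholangiocyte markers, 5 averaged below 1 FPKM, among them Krt7 (0.0492 to 0.242 FPKM), Sox9 (0.0700 to 0.276 FPKM) and Cftr (0.0600 to 0.0802 FPKM). Krt19 was at 1.199, 1.34 and 2.77 FPKM and Epcam at 10.3, 11.4 and 13.3 FPKM in rat 1, rat 2 and rat 3. The sum over the 7 was 12.002, 13.1 and 17.7 FPKM, highest in rat 3, and Epcam gave 85.9%, 86.9% and 75.3% of it. The part of cholangiocytes in the Foxa2 values was not tested.

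Several genes known as FOXA targets were lowest in rat 2, where Foxa2 was highest. Of 14 listed FOXA targets with a value in every library and a mean of at least 1 FPKM, 4 were at least 1.5 times lower in rat 2 than in both other libraries, against 1.95% of all rows, and 0 were that much higher. The list and the limit were chosen with results of these data known, and rat 2 was singled out by its Foxa2 level. The count therefore describes these libraries and is not a test. Igfbp1, an insulin-repressed growth factor binding protein, was at 97.5 FPKM in rat 1, 22.4 FPKM in rat 2 and 68.4 FPKM in rat 3. Pck1, the enzyme that commits oxaloacetate to gluconeogenesis, was at 817, 451 and 1139 FPKM. Tat, tyrosine aminotransferase, was at 1023, 429 and 1221 FPKM, and G6pc, the glucose-releasing phosphatase, at 540, 249 and 437 FPKM. These genes respond to feeding and hormones, which the labels do not give, and the part of such states in the Foxa2 values was not tested. The other 10 FOXA targets met the limit in neither direction in rat 2, among them transferrin (Tf) at 11666, 14027 and 11927 FPKM and transthyretin (Ttr) at 9869, 12914 and 10322 FPKM. Alb, the highest listed FOXA target, had 1 usable value, 25789 FPKM in rat 3, and Afp, the fetal albumin-like protein and the lowest, was at 3.08, 4.004 and 2.24 FPKM.

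**Figure D3:**
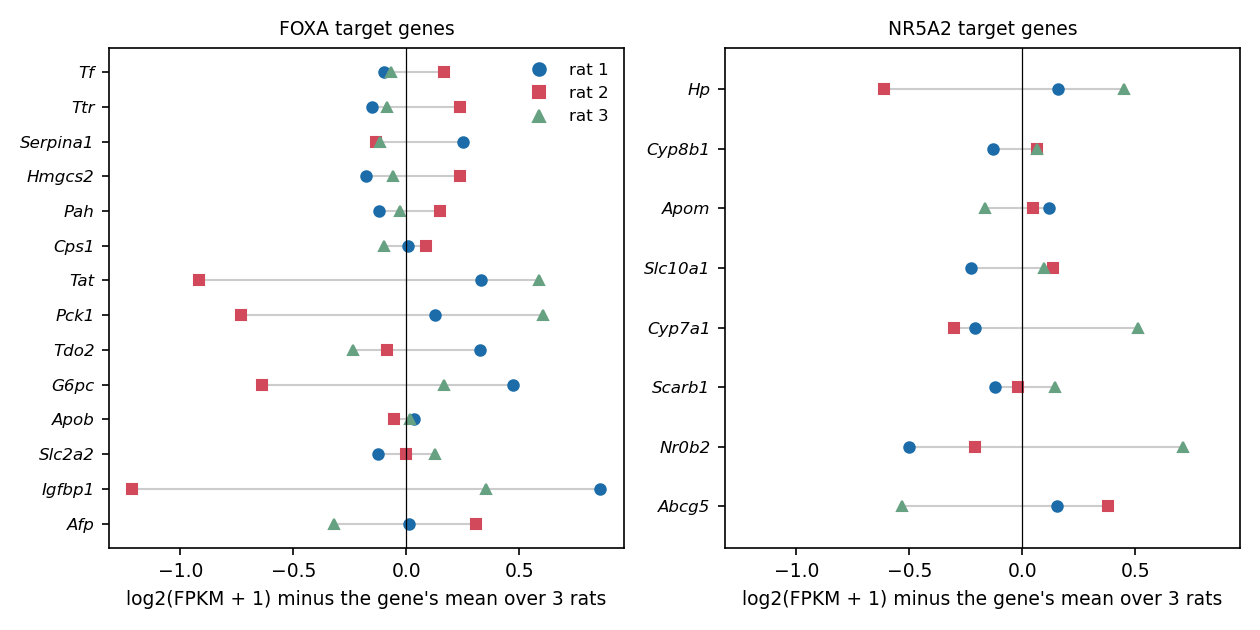
Difference of each library's log2(FPKM + 1) from the gene's mean over 3 rats for listed FOXA targets (left) and NR5A2 targets (right) with a value in every library and, for the NR5A2 targets, a mean of at least 1 FPKM, ordered by mean level. Tat, Pck1, G6pc and Igfbp1 have rat 2 far to the left. Nr0b2 and Cyp7a1 have rat 3 to the right, at 9.95 and 68.6 FPKM, and Abcg5 has it to the left, at 2.82 FPKM.

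The HNF4A target list, which shares genes with the FOXA list, was abundant in the same libraries. Of 34 measured HNF4A targets, 33 averaged at least 10 FPKM, or 97.1% against 17.3% of all rat rows. At 100 FPKM or more there were 26, or 76.5% against 2.94%. The median was 423 FPKM, against 0.448 FPKM over all rat rows. The highest were Tf, Ttr and Ambp, the precursor of a plasma protease inhibitor, at 7539, 8751 and 6959 FPKM. The lowest was Epo, erythropoietin, at 0.704, 0.174 and 0.0815 FPKM. In rat 2, 4 of 33 were at least 1.5 times below both other libraries, Apoa5, a regulator of plasma triglyceride, beside Tat, Pck1 and G6pc, against 1.95% of all rows. In the other direction Nr1i3 was above in rat 2, as 1 of 33, against 1.97%. In rat 3, Cyp7a1 was that far above, as 1 of 33, against 1.87%, and Apoa4 that far below, as 1 of 33, against 1.75%. Of 12 hepatocyte markers with a value in every library, 2 were that far below in rat 2, against 1.95% of all rows: Tat and the fibrinogen chain Fgb (8594, 2257 and 8667 FPKM). Fibrinogen genes also belong to the acute-phase response.

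The targets listed for NR5A2 and ONECUT1 included both even and uneven genes. Nr5a2 differed by at most 1.12 times between libraries, while its target Nr0b2, the small heterodimer partner that represses NR5A2 and HNF4A, was at 3.72, 4.79 and 9.95 FPKM, so that the ratio of Nr5a2 to Nr0b2 was 2.34 in rat 1, 1.81 in rat 2 and 0.780 in rat 3. Cyp7a1, the P450 that starts the conversion of cholesterol to bile acids (P450 copies can split reads), was at 41.2, 38.5 and 68.6 FPKM, also highest in rat 3. Abcg5 went the other way, at 5.13, 6.18 and 2.82 FPKM. Of the 8 NR5A2 targets at 1 FPKM or more, 2 were at least 1.5 times above both other libraries in rat 3, against 1.87% of all rows. Abcg5, as 1 of 8, was that far below, against 1.75%. Cyp8b1, a sterol hydroxylase, was level at 521, 596 and 597 FPKM, and so was Apom, an HDL apolipoprotein, at 453, 431 and 372 FPKM. Haptoglobin (Hp), the highest listed NR5A2 target and an acute-phase gene, was at 13720, 8048 and 16803 FPKM. Hp was at least 1.5 times below both other libraries in rat 2, as 1 of 8, against 1.95% of all rows. The canalicular exporter Abcc2 is also on the list. Over the 8 NR5A2 targets at 1 FPKM or more the median SD of log2(FPKM + 1) was 0.323, over the 7 ONECUT1 targets 0.393, over the 8 identity factors 0.118 and over all 9994 rows 0.137. Hnf4a is itself one of the 7, and it and Slc2a2, a glucose transporter, varied less (0.122 and 0.126) than Onecut1 (0.137). With median-ratio scaling the order of Hnf4a and Onecut1 was reversed, at 0.176 and 0.161. Pck1, G6pc, Ttr and Slc2a2 stand on the FOXA list as well. Abcc2 and the ONECUT1 target Cyp2c12, a P450, were listed at 0 in the 3 libraries, but their rows lie on separate contigs. All 831 rows on such contigs were at 0 in every library, against 27.0% of the other 21718 rows, so these zeros give no level. None of the 8 factors lies on such a contig.

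Among 25 measured factors of the same network, 24 averaged at least 1 FPKM, or 96% against 44.3% of all rat rows. At 10 FPKM or more there were 17, or 68% against 17.3%. Atf5, a stress-linked bZIP factor, was the highest at 459, 507 and 466 FPKM, followed by Creb3l3, a membrane-bound factor of hepatic lipid and acute-phase genes, at 304, 313 and 297 FPKM, and the xenobiotic receptor Nr1i2 at 133, 140 and 125 FPKM. Nr2f1, the lowest, was at 0.4998, 0.738 and 0.625 FPKM. The C/EBP factors Cebpa and Cebpb, which act with FOXA proteins at liver enhancers, also changed order between libraries: the ratio of Cebpa to Cebpb was 0.824 in rat 1, 1.82 in rat 2 and 1.10 in rat 3. Nr1i3, the receptor CAR, was at 30.5, 47.3 and 23.4 FPKM, at least 1.5 times higher in rat 2 than in both other libraries. That made 1 of 24 network factors, against 1.97% of rows. Nr0b2 was that far above in rat 3, also as 1 of 24, against 1.87%.

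**Figure D4:**
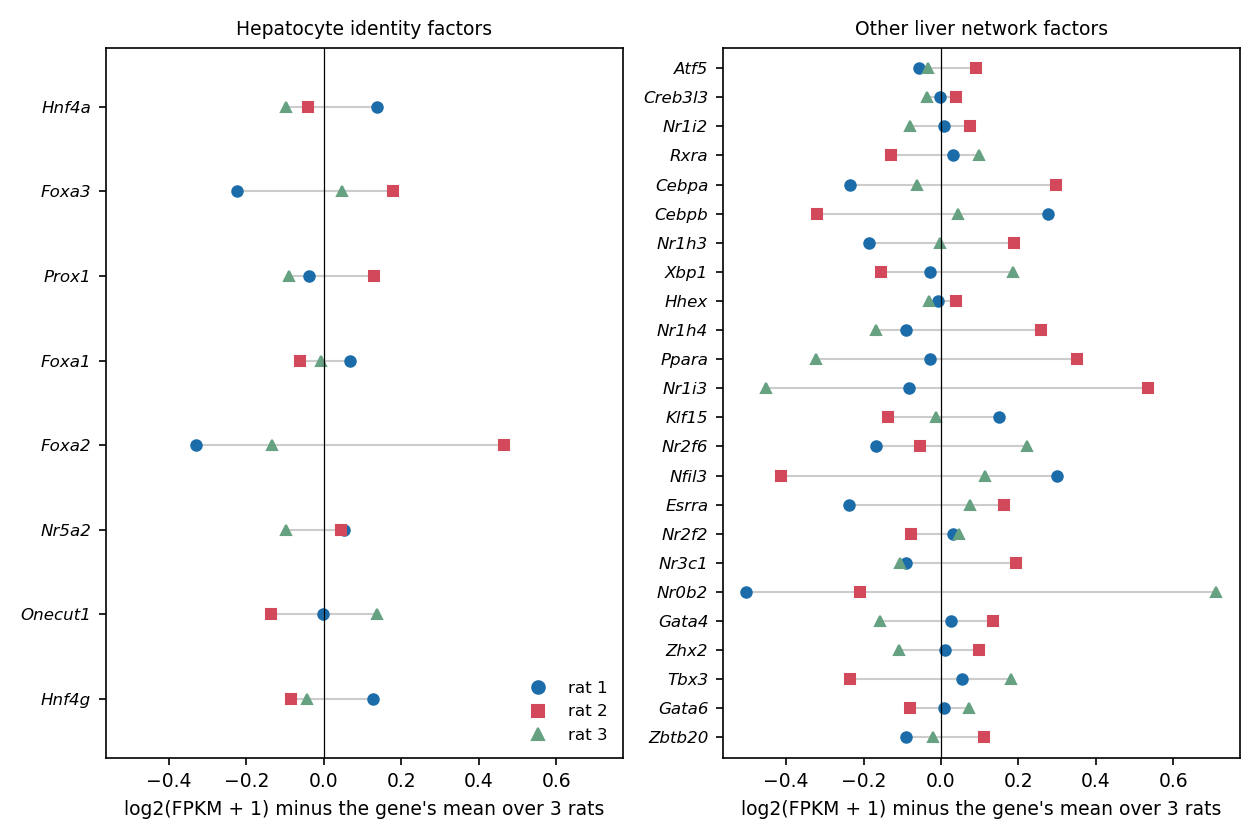
Difference of each library's log2(FPKM + 1) from the gene's mean over 3 rats, for the 8 identity factors (left) and 24 other liver network factors at 1 FPKM or more (right), ordered by mean level, with 1 symbol per library. Foxa2 and Nr1i3 have rat 2 far to the right (13.1 and 47.3 FPKM), and Nr0b2 has rat 3 far to the right (9.95 FPKM). The other identity factors spread less than Foxa2, with Foxa3 (SD of 0.206) the widest of them.

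Outside FOXA, 10 of 24 measured forkhead genes averaged at least 1 FPKM, or 41.7% against 44.3% of all rat rows, so their share at that level was near that of any row. At 10 FPKM or more it was 1 of 24, or 4.17% against 17.3%. Their median was 0.247 FPKM. That 1 was Foxo1, which insulin signalling excludes from the nucleus, at 17.6, 17.3 and 12.3 FPKM, or 2.47, 1.32 and 1.47 times Foxa2. Foxp4 (6.99, 8.21 and 7.81 FPKM) and Foxj3 (5.54, 6.42 and 4.70 FPKM) followed. Foxi1, Foxd1 and Foxn1 were listed at 0. Coregulators used by HNF4A, FOXA, PROX1 or NR5A2 were below Hnf4a. Of 23 measured, 21 averaged at least 1 FPKM, or 91.3% against 44.3% of all rat rows. At 10 FPKM or more there were 5, or 21.7% against 17.3%, near the share of any row. Their median was 5.001 FPKM. The histone deacetylases led, Hdac3 at 21.3, 25.2 and 24.5 FPKM, Hdac1 at 13.9, 17.3 and 17.5 FPKM and Hdac2 at 14.0, 16.0 and 14.4 FPKM. Ppargc1a, a fasting-induced coactivator of HNF4A and outside the naming rule, was at 0.837, 1.29 and 1.17 FPKM. Sirt1, a deacetylase, was at 3.09, 5.02 and 2.84 FPKM, at least 1.5 times higher in rat 2 than in both other libraries. That made 1 of the 21 coregulators with a mean of at least 1 FPKM, against 1.97% of all rows. In rat 1, Tle3 was that far above both others, as 1 of 21, against 1.17%. In rat 3, Nr0b2 was that far above, also as 1 of 21, against 1.87%.

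**Figure D5:**
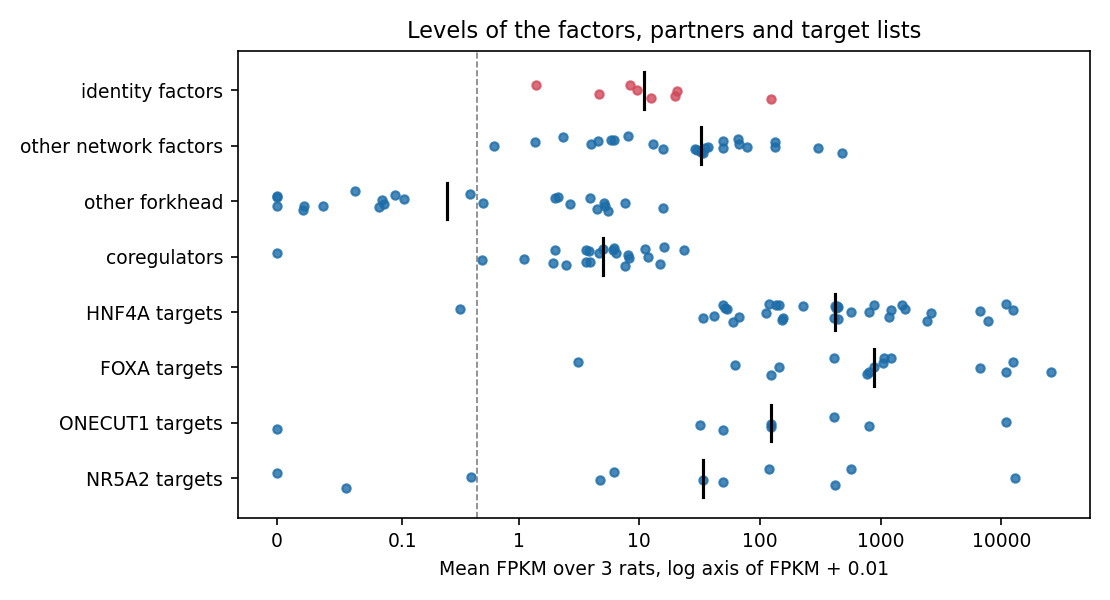
Mean FPKM over 3 rats (log axis of FPKM + 0.01) for the 8 identity factors (red) and the genes of 7 lists (blue), with a bar at each median and a dashed line at the median of all rat rows, 0.448 FPKM; Alb stands at its 1 usable value. The medians lie near 11.02 FPKM for the identity factors, 32.4 FPKM for other network factors, 0.247 FPKM for other forkhead genes and 423 FPKM for HNF4A targets.

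Nearness in level was measured as the mean absolute difference of log2(FPKM + 1) over the 3 rat libraries, among 49 listed transcription factors other than the 8. Hnf4a was nearest to Rxra, a retinoid receptor at 135, 121 and 142 FPKM, with a difference of 0.10. Foxa1 was nearest to Nr2f2 (0.05), Nr5a2 to the glucocorticoid receptor Nr3c1 (0.12), Hnf4g to Zbtb20 (0.14) and Onecut1 to Foxj2 (0.16). Prox1 and Foxa3 shared Esrra as nearest, at 0.32 and 0.37, although they lay nearer to each other (log2 differences of Foxa3 minus Prox1 of -0.13, 0.10 and 0.19). Foxa2 was nearest to Nr3c1, at 0.22. Among all 22540 other rat rows with a value in every library, the nearest to Hnf4a, Foxa3, Prox1, Foxa1, Nr5a2 and Hnf4g were Dhrs4, Add1, Rdx, Eif2s3x, Card10 and Iqce, each within 0.04, and that of Onecut1 was LOC100360074. Over 3 libraries of 1 condition such nearness describes level and nothing else.

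Between the species, 3 genes considered beside the factors had values in both, and of these APOH and UGT1A1 were tested. Over the 388 symbols shared between the species, 288 were tested on scaled FPKM with limma, of which 32.6% were called with naked mole rat above rat and 41.0% with rat above naked mole rat, so a call by itself is common. Levels correlated weakly between the species across the 388 symbols, which are not replicates (Spearman's rho 0.26, Pearson's r 0.26 on mean log2(FPKM + 1)). The scale factors, 0.889 to 1.17, rest on the 243 of these detected in every library, and scaled values and calls depend on them. APOH, a plasma glycoprotein made by hepatocytes, was at 57.9, 34.7 and 51.7 FPKM in naked mole rat and 3446, 3597 and 3239 FPKM in rat, with a log2 difference of -5.96 ± 0.219 (SE; limma adjusted p = 1.10e-07). The libraries of the species did not overlap, and the naked mole rat row spanned 2368397 bp against 14126 bp in rat, a difference in gene model whose part in the result cannot be told apart from species. UGT1A1, the bilirubin glucuronosyltransferase, was at 50.9, 56.0 and 32.2 FPKM in naked mole rat and 82.6, 109 and 98.1 FPKM in rat. Its log2 difference of -0.88 ± 0.228 (SE; limma adjusted p = 0.00773) fell short of the limit of 1 for a call, and its rows spanned 9057 and 7122 bp. UGT1A genes share exons and can split reads. NR0B1, a repressor of NR5A receptors, was at 0, 0.0510 and 0.0518 FPKM in naked mole rat and listed at 0 in the 3 rat libraries, and was not tested.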

How the data were processed

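Liver polyadenylated RNA of 3 naked mole rat and 3 rat libraries was used. FPKM values were computed by the authors, per the file headers, which are those of a Cufflinks gene table, and were used as deposited. The submitters' processing notes name Cufflinks 2.1.1, TopHat2 2.0.9, Bowtie2 2.1.0 and Picard 1.137, with no settings. The sources used here give neither genome build nor annotation. Rows were joined by symbol and locus. Alb carries the status HIDATA in rat 1 and rat 2 and was treated as missing there.

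Groups follow the sample titles. The rats form 1 group, so no test was made among them. For the species comparison, symbols were matched without regard to case, rows of a symbol summed, each library divided by its median ratio to the geometric mean of the shared symbols detected in every library, symbols that reached 1 scaled FPKM in 3 or more libraries kept, and limma 3.58.1 in R 4.3.3 run with a trend on mean level and Benjamini-Hochberg adjusted p-values. A call needed both a log2 difference of 1 or more and an adjusted p below 0.05. The step was tested on simulated data.

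Promoter windows came from RefSeq (GRCr8). The 8 factors and all lists were chosen with earlier results of these data known, and the motifs with the windows in view. Named genes were the 8 factors, the 3 highest and the lowest of each list, list genes with a naked mole rat row, and the nearest genes in level. Others were chosen after their values were seen. Some listed genes and 1 list are not reported here. Alternatives were scaling, pseudocount, filter, thresholds, a replicate block and leaving out each library.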

Additional observations from a re-analysis of the deposited data

How the results depend on the processing

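Scaled to a sum of 1000000 without Alb (TPM), the mean levels were 234 for Hnf4a, 39.1 for Foxa3, 37.5 for Prox1, 23.6 for Foxa1, 18.003 for Foxa2, 15.8 for Nr5a2, 8.71 for Onecut1 and 2.65 for Hnf4g, in the same order as in FPKM. With a pseudocount of 0.1 the log2 difference of Onecut1 over Hnf4g was 1.65. Scaling by the median ratio moved the SD of Foxa1 between rats to 0.12, and a pseudocount of 0.1 that of Hnf4g to 0.18. The limit for a library apart was chosen after seeing the data: with 1.3, 1.5 and 2, the FOXA targets below in rat 2 numbered 4, 4 and 2, and all rows 374, 195 and 74. With median-ratio scaling Foxa2 and the same number of FOXA targets (4) met the limit of 1.5. Leaving out each library gave means of 7.74 to 10.7 FPKM for Foxa2 and 118 to 128 FPKM for Hnf4a, and 92 to 101 symbols higher in naked mole rat and 115 to 122 higher in rat. The log2 difference of UGT1A1 passed the limit of 1 with FPKM as deposited (-1.07), without naked mole rat 2 (-1.04) and without rat 1 (-1.03), and it was -0.51 without naked mole rat 3. No pairing of the species by replicate number was seen. Deviations of same-numbered libraries correlated at -0.04, -0.09 and -0.04 across symbols, and those of differently numbered libraries at up to 0.12. The fit with a replicate block called 94 and 118 symbols, as did the fit without it. Whether libraries of the 2 species shared a batch was not tested. In all, 169 of 190 alternative values were counted as unchanged. Levels and log2 differences of the factors counted so if they moved by less than their SD over the libraries. SDs and counts had to stay within 1.5 times the main value, and APOH and UGT1A1 had to keep direction and call. Leaving 1 of 3 libraries out cannot move a mean by its SD, so those levels and differences could not fail. Without counts, the precision of low genes such as Hnf4g is unknown.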
